A study of Homo sapiens with 4 samples.

Results

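Peaks at 5 Smad genes other than SMAD2, SMAD3 and SMAD7 were examined in the ChIP-seq peak lists of the tagged receptor-regulated Smads Smad2 and Smad3. The genes were SMAD1, SMAD4, SMAD5, SMAD6 and SMAD9, and a peak was counted if its interval overlapped the GENCODE release 44 gene span widened by 10 kb on each side. Of the 104156 peaks in 4 lists, 15 met this rule, 4 in the LAP-Smad2 list after TGFβ-1, 11 in the LAP-Smad3 list after TGFβ-1 and 0 in each untreated list. All cells came from the human breast cancer line MDA-MB-231 and were stably transfected with a bacterial artificial chromosome (BAC) that carried SMAD2 or SMAD3 with its own control elements and a LAP tag at the C-terminus. The tag contains GFP, the transfected cells were selected with Geneticin and sorted for GFP, and the untagged Smad proteins of the cells were still present beside the tagged copy. Cells were left without treatment or received TGFβ-1 at 10 ng/mL (the labels give 2 h), and chromatin was precipitated with an anti-GFP antibody. The groups LAP-Smad2 untreated, LAP-Smad3 untreated, LAP-Smad2 treated and LAP-Smad3 treated had 1 library each, so no difference between them has a replicate check and none was tested.

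For the untreated pair, the names inside the lists give the opposite Smad from the sample labels. They are called by their labels here, and no direction rests on which Smad they hold. After TGFβ-1 the lists held 26828 (LAP-Smad2) and 62551 (LAP-Smad3) peaks, and without it 11266 (label LAP-Smad2) and 3511 (label LAP-Smad3). Read totals per library were not given in the lists, and a deeper library yields more peaks at the same cut-off.

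Smad proteins carry signals of the TGFβ family from the receptors to DNA. SMAD1, SMAD5 and SMAD9 are the receptor-regulated Smads of the bone morphogenetic protein (BMP) branch, SMAD4 is the common partner of all receptor-regulated Smads, and SMAD6 is an inhibitory Smad that mainly restrains BMP signaling. SMAD3 and SMAD4 contact short sequences such as CAGAC, or GC-rich sites such as GGCGCC, with low affinity, and inhibitory Smad genes are well-known feedback targets of the pathway.

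The sequences shown here are 200 bp windows on the centre of the interval, for the peaks of SMAD1, SMAD5 and SMAD6 with the highest percentile of fold enrichment within their own list. At SMAD1, 2 peaks tied for it, and the window of the one outside repeated sequence is shown. The top windows of SMAD4 and SMAD9 were of repeated sequence and are not shown. The sequences come from the plus strand of hg38 and read 5′ to 3′, with CAGAC, its reverse complement GTCTG and GGCGCC in capitals. The SMAD1 window, near the start of the gene, is chr4:145482133-145482332, and the SMAD6 window, in an intron, is chr15:66733971-66734170. The SMAD5 window, chr5:136192226-136192425, lies past the end of the gene. A further window near SMAD5, chr5:136193512-136193711, was chosen after the matches were seen, because it held 3 matches of CAGAC or its reverse complement, more than any of the other 14.
SMAD1 near the gene start (LAP-Smad2): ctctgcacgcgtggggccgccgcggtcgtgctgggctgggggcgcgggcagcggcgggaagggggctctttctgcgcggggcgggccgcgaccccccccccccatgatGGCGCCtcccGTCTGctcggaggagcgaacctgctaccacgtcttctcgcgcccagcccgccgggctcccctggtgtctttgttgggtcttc
SMAD6 (LAP-Smad3): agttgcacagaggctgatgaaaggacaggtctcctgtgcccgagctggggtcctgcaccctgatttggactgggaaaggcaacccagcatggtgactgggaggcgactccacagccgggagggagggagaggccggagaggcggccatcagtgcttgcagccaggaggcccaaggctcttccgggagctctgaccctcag
SMAD5 downstream (LAP-Smad2): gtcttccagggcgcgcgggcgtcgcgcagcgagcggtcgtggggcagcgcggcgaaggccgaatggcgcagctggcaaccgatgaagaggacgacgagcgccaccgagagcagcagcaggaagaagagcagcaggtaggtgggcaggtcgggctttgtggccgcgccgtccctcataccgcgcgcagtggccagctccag
SMAD5 further downstream (LAP-Smad2): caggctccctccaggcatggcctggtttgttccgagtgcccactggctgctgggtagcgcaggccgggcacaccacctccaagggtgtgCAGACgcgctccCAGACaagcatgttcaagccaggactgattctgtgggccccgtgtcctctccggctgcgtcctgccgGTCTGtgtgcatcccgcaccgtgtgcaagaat
These 4 windows are nearly free of sequence that is repeated in hg38. Windows of repeated sequence, 8 of the 15, were left out of the choice by fold percentile. The further SMAD5 window was chosen by its matches alone, among all 15.

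After TGFβ-1, all 5 genes had at least 1 LAP-Smad3 peak. By the same rule, 74.3% of 20033 protein-coding genes had one, and 81.9% of the 1665 protein-coding genes whose widened spans were as long as those of the 5 genes. LAP-Smad2 peaks after TGFβ-1 were listed at SMAD1 and SMAD5, and SMAD4, SMAD6 and SMAD9 had none. Here the share of all protein-coding genes with a peak was 55.9%, and 61.2% among those of like length. None of the 5 genes had a peak in an untreated list, where 22% (labelled LAP-Smad2) and 9.14% (labelled LAP-Smad3) of protein-coding genes did, or 25% and 9.91% of those of like length. Over 5 genes, none of these counts is a result that is particular to the Smad genes.

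The number of peaks was set beside what the length of each list gives. The 11 LAP-Smad3 peaks (exact Poisson 95% interval 5.49 to 19.7, counting error only) compare with 9.52 if the list were spread evenly over hg38, and the 4 LAP-Smad2 peaks (1.09 to 10.2) with 4.08. At the mean of the 1665 protein-coding genes of like length, 5 genes would have 13.7 LAP-Smad3 and 6.03 LAP-Smad2 peaks. The LAP-Smad3 count was above the even spread and below the value for like length, the LAP-Smad2 count was below both, and all 4 values lie within the counting intervals. An even spread would place 1.71 peaks (label LAP-Smad2) and 0.534 peaks (label LAP-Smad3) of the untreated lists in the 5 spans, so that 0 peaks was not distinguishable from an even spread in these lists. Per 100 kb of widened span, SMAD9 had 3.12, SMAD6 2.98, SMAD5 2.63, SMAD4 2.61 and SMAD1 1.02 LAP-Smad3 peaks. SMAD9, the densest of them, exceeded 57.9% of protein-coding genes, and SMAD1 exceeded 31.9%. For LAP-Smad2, the density at SMAD5 was 2.63 and at SMAD1 2.04 per 100 kb, above 71.5% and 65.6% of protein-coding genes.

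**Figure D1:**
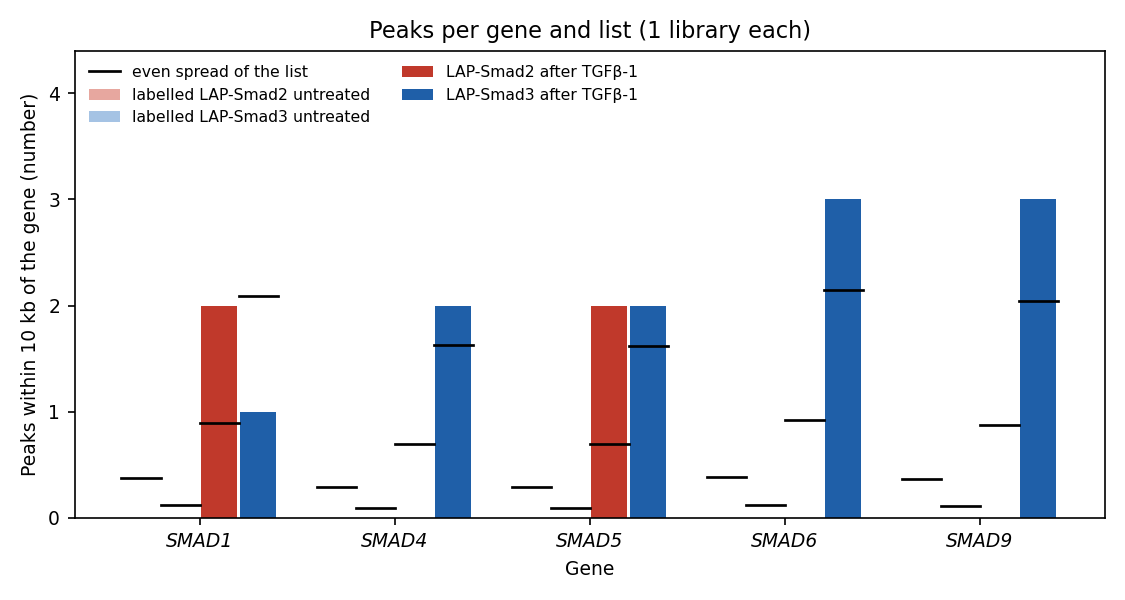
Number of peaks (vertical axis) within 10 kb of each gene (horizontal axis) in the 4 lists, 1 library each, with a black line where a list of that length spread evenly over hg38 would lie. LAP-Smad3 bars reach 1 at SMAD1, 2 at SMAD4 and SMAD5, and 3 at SMAD6 and SMAD9, LAP-Smad2 bars reach 2 at SMAD1 and SMAD5, and both untreated lists are at 0 throughout.

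No genomic interval at these genes was shared. None of the 4 LAP-Smad2 peaks overlapped a LAP-Smad3 peak, where 24.5% of the whole LAP-Smad2 list did, and none of the 11 LAP-Smad3 peaks overlapped a LAP-Smad2 peak, where 10.6% of the whole LAP-Smad3 list did. By the limit of 3 counts, 0 among 11 allows a share of up to 27.3% and 0 among 4 up to 75%, and the upper bounds of the exact Clopper-Pearson 95% intervals are 28.5% and 60.2% (counting error only), so that both whole-list shares lie within these limits. The closest pair lay beyond the end of SMAD5, where a LAP-Smad2 peak began 529 bp after the end of a LAP-Smad3 peak. At SMAD1 the closest pair was 4813 bp apart. The nearest untreated peak of either list lay between 84.0 kb and 429 kb away from each of the 15 peaks. Over the whole LAP-Smad2 list after TGFβ-1, 14.1% of peaks overlapped the untreated list labelled LAP-Smad2 and 9.25% that labelled LAP-Smad3. For the whole LAP-Smad3 list the shares were 7.27% and 1.10%. These shares also lie within the limits above, so that 0 is not a result particular to these genes.

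SMAD1 (ENSG00000170365.10), a BMP receptor-regulated Smad, spans chromosome 4 (plus strand) from 145481194 to 145559176. It was the only member with a peak within 3 kb of the start of its own gene span. The share of all protein-coding genes by this rule was not counted, so nothing particular to SMAD1 is read from it. The peak near the SMAD1 start, from the LAP-Smad2 list, runs from 145482035 to 145482430. It overlaps exon 1 of the canonical transcript, 5′ UTR there, by 4 bp and otherwise lies in intron 1. It has its summit 1067 bp from the gene start and its near edge 56 bp from an annotated transcript start. Its fold enrichment over the local background was 4.75, the −log10 q 5.92 and the percentile of fold within the list 84.4. The GC content of its window was 75%, and a GGCGCC and a reverse CAGAC lie close together in it, as the sequence above shows. The summit was 8 bp from the middle of that CAGAC match.

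The other LAP-Smad2 peak at SMAD1, from 145527242 to 145527571 in intron 2 of 6 of the canonical transcript, had exactly the same fold, p-value and q-value. The same fold and p-value were listed for 564 peaks of the list. Its sequence was unlike that of the first, because every 20-mer of the window occurred more than once in hg38, with a median of 29471 occurrences. The single LAP-Smad3 peak at SMAD1, from 145522145 to 145522429, was in the same intron and had a fold of 3.32, at percentile 5.03 of its list. The median occurrence of its 20-mers was 640.

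SMAD4 (ENSG00000141646.16), the common partner, spans chromosome 18 (plus strand) from 51028528 to 51085045. It had 2 LAP-Smad3 peaks, both of low rank. The first, from 51050285 to 51050484 in intron 4 of 11, had a fold of 3.65, a −log10 q of 2.48 and a percentile of 10.5. The second, from 51062859 to 51063064 in intron 8, had a fold of 3.44, a −log10 q of 2.71 and a percentile of 6.76. The second interval also covers an exon and the start of a non-canonical SMAD4 transcript. Both windows were made of repeated sequence, with medians of 1724 and 19882 occurrences per 20-mer. The nearest peak of the LAP-Smad2 list after TGFβ-1 was 1229 kb from the gene.

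SMAD5 (ENSG00000113658.18), a close relative of SMAD1, spans chromosome 5 (plus strand) from 136132845 to 136188747. It had 4 peaks within reach, and 3 of them lay past its end, at SMIM32, a gene for a small integral membrane protein on the minus strand. The LAP-Smad3 peak from 136191463 to 136191678 overlaps the 3′ UTR of SMIM32 and had a fold of 4.41 at percentile 33.9. The LAP-Smad2 peak from 136192207 to 136192445 overlaps coding sequence of SMIM32 and had a fold of 3.71 at percentile 35.1.

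The other LAP-Smad2 peak, from 136193512 to 136193711, lies 350 bp upstream of the start of SMIM32. It was the weakest of the 4 LAP-Smad2 peaks by q-value, with a fold of 2.91, a −log10 q of 1.77 and a percentile of 4.61. By q-value it stood at rank 26805.5 of 26828, near the very end of its list. It is also the window with 3 CAGAC matches. The summits of these 3 peaks were 2873, 3546 and 4793 bp past the end of SMAD5. Inside SMAD5 itself there was 1 peak, a LAP-Smad3 peak in intron 3 of 7 from 136158690 to 136158893, with a fold of 3.32 at percentile 5.03 and a window of repeated sequence. No LAP-Smad2 peak lay within the SMAD5 span.

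SMAD6 (ENSG00000137834.15), the inhibitory Smad, spans chromosome 15 (plus strand) from 66702236 to 66782849. It had 3 LAP-Smad3 peaks, each in the long intron 3, and, after TGFβ-1, no LAP-Smad2 peak nearer than 29.2 kb to the gene. The peak from 66733965 to 66734176 had the highest fold of the 11 LAP-Smad3 peaks, 6.07, at percentile 82.5, with a −log10 q of 5.63. In the whole list, 2478 peaks had this same fold and p-value. The peak from 66725798 to 66725997 had a fold of 4.97 at percentile 52.9 and a CAGAC match whose middle was 37 bp from the summit. In the windows of both, at most 2.76% of the 20-mers were repeated. The third, from 66765240 to 66765441, had a fold of 4.75 at percentile 43.9, and every 20-mer of its window was repeated. The nearest of these summits was 23.6 kb downstream of the SMAD6 start, and no peak of any list lay within 3 kb of an annotated SMAD6 transcript start.

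SMAD6 is a neighbor of SMAD3, the gene on one of the transfected BACs, which begins 281 kb beyond the end of SMAD6. After TGFβ-1, 52 LAP-Smad3 peaks lay at SMAD3 widened by 10 kb and 3 at SMAD6. In the 261 kb between the widened spans there were 6, where an even spread would give 5.56. LAP-Smad2 had 1 peak at SMAD3, 1 between the spans and 0 at SMAD6. The untreated lists had 0 (label LAP-Smad2) and 1 (label LAP-Smad3) peaks at SMAD3. Whether the added copies of SMAD3 in the LAP-Smad3 cells affect the count at SMAD3 was not tested.

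SMAD9 (ENSG00000120693.15), the third BMP receptor-regulated Smad, spans chromosome 13 (minus strand) from 36844831 to 36920887. It had 3 LAP-Smad3 peaks and, after TGFβ-1, no LAP-Smad2 peak nearer than 25.1 kb to the gene. The peak from 36909806 to 36910177, in intron 1 of 6, had the highest −log10 q of the 11 LAP-Smad3 peaks, 6.14, with a fold of 5.86 at percentile 78.0. The peak from 36901391 to 36901590 in the same intron had a fold of 4.39 at percentile 29.8. Repeated sequence made up both windows, with medians of 15465 and 10266 occurrences. The remaining peak, from 36851150 to 36851349, lies in intron 6 near the other end of the gene, 1104 bp from the start of the non-coding gene SMAD9-IT1. It had a fold of 5.52 at percentile 70.9, and 3.31% of its 20-mers were repeated.

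**Figure D2:**
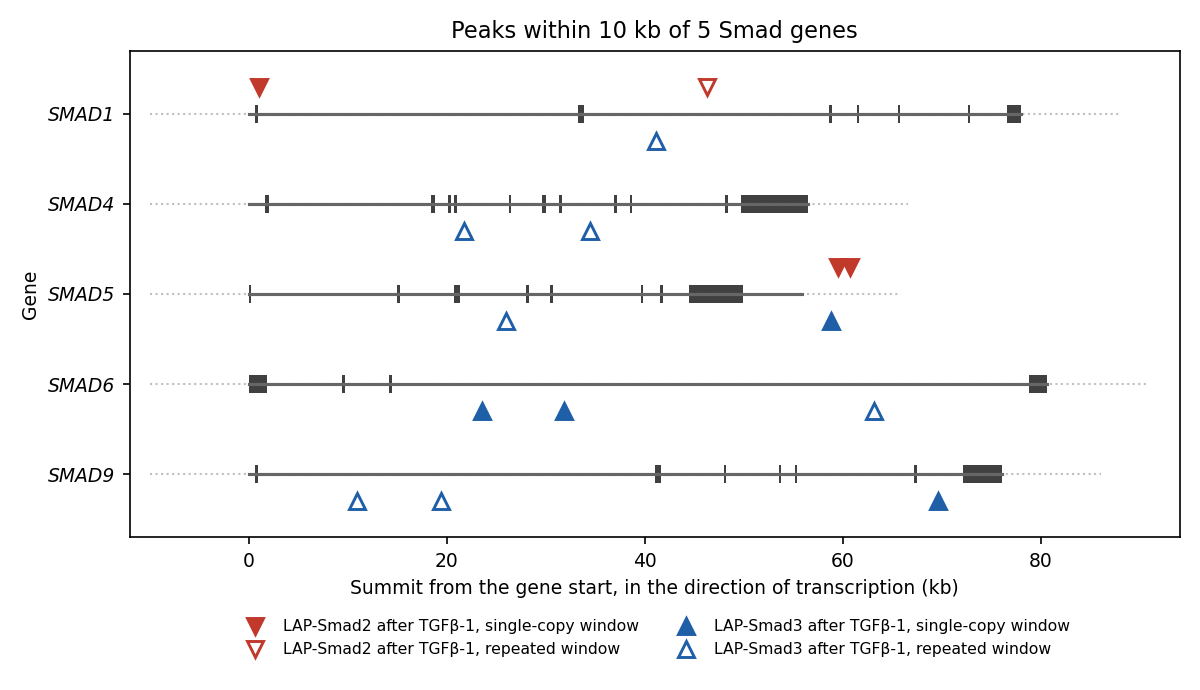
Position of the 15 peak summits (horizontal axis, kb from the gene start in the direction of transcription) along each gene (rows), with exons of the canonical transcript as dark blocks and the widening of 10 kb as dotted lines. Downward triangles are LAP-Smad2 and upward triangles LAP-Smad3 peaks after TGFβ-1, and open triangles mark windows of repeated sequence. A single summit lies near a gene start, at 1.07 kb in SMAD1, and 3 lie past the end of SMAD5.

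Counted over the genes, 12 of the 15 summits lay inside the gene, 3 downstream and 0 upstream. The genes take up most of the widened spans, from 55.9 of 75.9 kb at SMAD5 to 80.6 of 100.6 kb at SMAD6. All 10 LAP-Smad3 peaks inside a gene were in introns of the canonical transcript, which make up most of each gene. A preference for the gene or for introns was not tested. Within 3 kb of any start of their own transcripts, including internal ones, lay 2 LAP-Smad2 peaks, both at SMAD1, and 3 LAP-Smad3 peaks, at SMAD4 and SMAD5. This made 1 of 5 genes for LAP-Smad2 and 2 of 5 for LAP-Smad3, against 35.4% and 40.2% of protein-coding genes. The LAP-Smad3 peaks near these internal starts all had windows of repeated sequence. In the untreated lists it was 0 of 5, against 5.66% for the label LAP-Smad2 and 4.9% for the label LAP-Smad3.

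By fold enrichment within their own list, the peaks spread from percentile 4.61 to 84.4. Of the LAP-Smad3 peaks, 4 of 11 were above the middle of the list by mean rank, at SMAD6 and SMAD9, and the median percentile was 33.9. The SMAD6 peak at percentile 52.9 had the median fold of the list, 4.97, and passed the middle only through the mean rank of ties. Of the LAP-Smad2 peaks, 2 of 4 were above the middle of their list, both at SMAD1. By q-value, the best LAP-Smad3 peak stood at rank 12536.5 of 62551 and the best LAP-Smad2 peaks at rank 7657.5 of 26828, with ties given their mean rank. Many scores were shared. For the LAP-Smad3 peaks outside repeated sequence, the same fold and p-value were listed for 2925 (SMAD5), 3874 and 2478 (SMAD6) and 4108 (SMAD9) peaks. Their percentiles are therefore coarse steps rather than individual ranks.

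**Figure D3:**
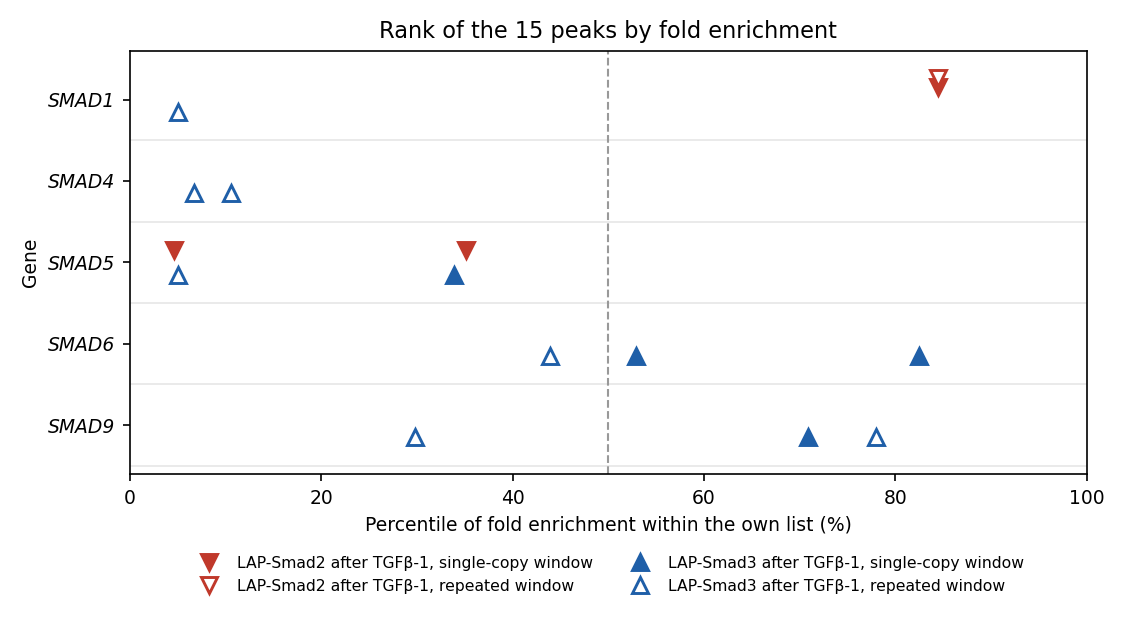
Percentile of fold enrichment within the own list (horizontal axis, %) of each of the 15 peaks by gene (rows), with symbols as in the map of summits and a dashed line at the middle of the list. SMAD1 holds both LAP-Smad2 peaks at 84.4, SMAD6 and SMAD9 hold the 4 LAP-Smad3 peaks above the line, and the SMAD4 peaks lie at 6.76 and 10.5. Of these 4, the SMAD6 peak at 52.9 has the median fold of its list.

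The windows fell into 2 kinds with nothing between them. In 8 of them, from 89.5% to 100% of the 20-mers occurred more than once in hg38, and in the other 7 from 0% to 3.31% did. All 8 repeated windows, and none of the 7 others, shared 12-mers with the 7SL RNA, the ancestor of Alu elements, which are the most abundant short interspersed repeats of the human genome. Of all windows at the 5 genes, repeated or not, these were 7 of 11 for LAP-Smad3 and 1 of 4 for LAP-Smad2. In the whole lists, 37.8% of all LAP-Smad3 and 21.5% of all LAP-Smad2 windows shared at least 1. Of the 11 LAP-Smad3 peaks, 7 were of the repeated kind, and of the 4 LAP-Smad2 peaks 1 was. In the whole lists, at least 50% of the 20-mers were repeated in 65.0% of LAP-Smad3 and 54.6% of LAP-Smad2 windows. In the untreated lists this held for 94.2% (label LAP-Smad2) and 63.9% (label LAP-Smad3) of windows. A short read from such sequence can be hard to place on the genome, and the part of this in the peaks was not tested.

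Without peaks in repeated windows, SMAD5 with 1, SMAD6 with 2 and SMAD9 with 1 were the genes with LAP-Smad3 peaks, against 44.4% of protein-coding genes and 44.9% of those of like length. LAP-Smad2 then had 1 peak at SMAD1 and 2 at SMAD5, against 42% and 44.8%. SMAD4 then had no peak in any list. In the list labelled LAP-Smad2 untreated, protein-coding genes with a peak fell from 4403 to 699 without repeated windows. In that labelled LAP-Smad3 untreated they fell from 1831 to 1359. The untreated shares of genes given above include repeated windows.

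CAGAC was found on either strand in 5 of the 15 windows, at SMAD1 (in 1 window of each Smad), SMAD5 (1) and SMAD6 (2). Over all windows of the lists, its share was 35.0% for LAP-Smad2 and 34.5% for LAP-Smad3 after TGFβ-1, against 33.2% of windows of 200 bp on the starts of 20033 protein-coding genes. GGCGCC was also found in 5 windows, 4 of them of repeated sequence. It was in 27.1% of all LAP-Smad2 windows, 24.9% of all LAP-Smad3 windows and 18.5% of those at gene starts. The palindrome GTCTAGAC and the AP-1 site TGANTCA were in none of the 15 windows. Over the treated lists they were in 0.0410% and 1.32% of LAP-Smad2 and in 0.0528% and 2.63% of LAP-Smad3 windows, and at gene starts in 0.115% and 3.88%. Neither GGCGCC nor TGANTCA can hold CAGAC, and GTCTAGAC holds no complete copy of it or of GTCTG.

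Other genes of the pathway were counted by the same rule. Over 44 genes of receptors and Smad regulators, LAP-Smad3 peaks after TGFβ-1 were within 10 kb of 36, or 81.8%, against 74.3% of all protein-coding genes, and LAP-Smad2 peaks near 27, or 61.4%, against 55.9%. Among the untreated lists, that labelled LAP-Smad2 had peaks near 13, or 29.5%, against 22%, and that labelled LAP-Smad3 had a peak near 1, or 2.27%, against 9.14%. The latter was PPM1A, a phosphatase gene. By role, LAP-Smad3 peaks were near 9 of 12 receptor and co-receptor genes, 2 of 3 genes of anchors and phosphatases, 10 of 11 genes of ubiquitin ligases and deubiquitinases, 4 of 6 co-repressor genes and 11 of 12 genes of co-activators and partner factors. For LAP-Smad2 the counts were 9, 2, 4, 4 and 8. The gene with the most LAP-Smad3 peaks was RUNX1, a partner factor of receptor-regulated Smads, with 18. Among the co-repressors it was SKI with 12, among the anchors and phosphatases ZFYVE9, which encodes the anchor SARA, with 10, and among the receptors BMPR2 with 9. These counts were not divided by gene length.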

How the data were processed

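ChIP-seq was performed with an anti-GFP antibody in 4 libraries of MDA-MB-231 cells. Bowtie2 was used by the authors to align the single-end reads to hg38. After extension of reads to 200 bp, MACS2 called the peaks of each library on its own (q-value below 0.05). The deposited fold enrichment is a ratio over the local background, and the p-value and q-value were deposited by the authors as −log10 values. Versions, the control library and read totals per library were not given in the sources used here. A lower bound on the reads is stated in the methods, and the depth is known only as that bound. The reference had the same build.

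Python 3.11.15, numpy 2.4.6, pandas 2.3.3, scipy 1.17.1, numba 0.67.0 and matplotlib 3.10.9 were used. Peaks were assigned by an overlap of at least 1 bp with the gene span of GENCODE release 44 widened by 10 kb. Even-spread counts divide the list over 2937639113 bases of hg38 without N on chromosomes 1 to 22, X and Y. Windows of 200 bp on the interval centre were read from hg38. Their 20-mers, strands merged, were counted over the same chromosomes, and a window was called repeated if at least 50% occurred more than once. RN7SL1 gave the 12-mers of 7SL. The canonical transcript is the one tagged so by Ensembl. Percentiles and ranks use mean ranks for ties. Counting functions were tested on simulated data.

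With 1 library per condition, no test was run. The members, lists and rules were chosen with earlier results of these data known. All 5 genes and all their peaks are named, and sequences are shown for SMAD1, SMAD5 and SMAD6, where a window of the highest fold percentile was neither repeated nor UTR sequence. The further SMAD5 window was added after its matches were seen. Some windows are not reported here as sequence. The alternatives were other widths of span, a stricter q-value, summits, trimmed lists, other overlaps, exchanged untreated libraries and other windows. The removal of repeated windows and the comparison with genes of like length were added after the data were examined.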

Additional observations from a re-analysis of the deposited data

How the results depend on the processing

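The counts at the Smad genes changed mainly with the width of the span and the length of the lists. Over the alternatives, 80 of 98 values stayed within 1.5 times the reported one and 18 did not. Many of the 80 were counts of 0 that stayed 0, and most of the alternatives could not raise them. The tally is therefore no measure of how stable the other values are. Without widening, LAP-Smad2 after TGFβ-1 had 2 peaks at 1 gene, since its peaks beyond SMAD5 drop out, and 8510 of 20033 protein-coding genes had a peak. With 50 kb, LAP-Smad2 after TGFβ-1 had 7 peaks at 4 genes, and 15653 protein-coding genes had a peak. LAP-Smad3 after TGFβ-1 had 19 peaks at 5 genes, beside 18684 protein-coding genes with a peak. In the untreated lists at this width, protein-coding genes with a peak numbered 8426 (label LAP-Smad2) and 3514 (label LAP-Smad3). With the lists trimmed by q-value to the length of the shortest, both treated lists had 0 peaks at 0 of the 5 genes, and 1760 (LAP-Smad2), 1586 (LAP-Smad3) and 1423 (labelled LAP-Smad2 untreated) protein-coding genes had a peak. Without repeated windows, LAP-Smad3 had 4 peaks at 3 genes, and 8890 protein-coding genes for LAP-Smad3 and 699 for the library labelled LAP-Smad2 untreated had a peak. At a q-value cut-off of 0.01, LAP-Smad2 had 3 peaks and LAP-Smad3 11. The LAP-Smad2 peak that drops out is the one upstream of SMIM32, whose sequence is shown. With 50 kb, or by summits within 100 bp, there was still no peak shared between the treated lists and none that met an untreated peak, and with 50 kb the untreated lists still had 0 peaks at the 5 genes. Other overlap rules, a stricter q-value and the exchange of the untreated libraries cannot raise a count of 0. Nor can a span without widening, trimmed lists or the removal of repeated windows. No paired analysis was possible because each condition has 1 library. The depth, stated only as a lower bound, limits any reading of a missing peak.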
